A study of Mus musculus with 6 samples.

Results

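The genes described here encode the MHC class II molecules that show peptides to CD4+ T cells, and the invariant chain that guides them through the cell. They are H2-Aa (the alpha chain of I-A), H2-Ab1 (the beta chain of I-A), H2-Eb1 (the beta chain of I-E) and Cd74 (the invariant chain). They were chosen by gene symbol, and with earlier results of these arrays known, so that their signals are described here without a p-value. They are 4 of the 13840 genes named by a probe on the array, with 1 probe each.

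Testis RNA of 6 mice, tagged with digoxigenin, was read on 1-colour arrays. There were 3 groups of 2 mice, and every mouse had an array of its own. All animals were adult C57BL/6J males, 10 to 12 weeks old, per the labels. The groups were wild-type mice on rodent chow, Abcg8 knockout mice on the same chow, and Abcg8 knockout mice whose chow held 0.005% ezetimibe, a drug that blocks sterol uptake from the gut. Abcg8 encodes a subunit of the transporter that returns cholesterol and plant sterols to the gut and bile. The labels name neither the strain in which the allele was made nor the number of backcrosses.

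A class II molecule is a pair of an alpha and a beta chain, assembled in the endoplasmic reticulum around the invariant chain. The invariant chain is then cut away by cathepsins, and H2-DM exchanges its last fragment for a peptide. Macrophages, dendritic cells and B cells are the usual sources of class II, and in the testis it is carried by interstitial macrophages and the few other leukocytes outside the tubules. The transactivator Ciita switches the chain genes and Cd74 on together, through a shared promoter module read by the RFX complex, CREB and NF-Y. Strains of mice differ in their MHC haplotype, and the b haplotype of C57BL/6 makes no functional alpha chain of I-E.

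The shared module can be read in the promoters of the chain genes, which is why they are printed here. RefSeq entries on GRCm38.p6 were found for 2 of the 3 chain genes. Each stretch is the 130 bases just upstream of the annotated start, 5′ to 3′ on the strand of the gene, chr17:34287824-34287953 on the minus strand for H2-Aa and chr17:34305737-34305866 on the plus strand for H2-Eb1. The capitals mark GCAAC, a core of the X box, and ATTGG, the inverted CCAAT of the Y box.
H2-Aa: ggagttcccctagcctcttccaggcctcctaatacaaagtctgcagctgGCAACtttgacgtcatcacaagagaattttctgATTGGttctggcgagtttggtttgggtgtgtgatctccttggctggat
H2-Eb1: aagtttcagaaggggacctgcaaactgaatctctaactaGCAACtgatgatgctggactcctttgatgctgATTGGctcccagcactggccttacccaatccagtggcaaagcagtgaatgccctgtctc
In H2-Aa 28 bases lay between the 2 marked motifs, and in H2-Eb1 27 bases. GCAAC followed by ATTGG on the same strand, 20 to 35 bases apart, was found in 221 of 32851 promoters of 250 bases (0.673%). Taken singly and on either strand, ATTGG was found in 33.8% of these promoters and GCAAC in 29.9%. These matches describe the letters of the reference sequence, and no binding was measured.

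The arrays differed in brightness, with a median raw signal of 258 on wild-type replicate 2 and 515 to 678 on the other arrays. Detection, meaning a signal-to-noise of at least 3, held for 15371 to 16632 of 33012 probes per array. Of 13 germ cell, Sertoli and Leydig cell markers on the array, 12 were detected on all arrays, among them the protamine gene Prm2, the Sertoli cell gene Wt1 and the Leydig cell gene Cyp17a1, while Sox9 was detected on 2. The probe for Abcg8 went against the labels. Its raw signal was 1715 and 569 for wild-type-labelled mice, 20013 and 22134 for knockout-labelled mice on chow alone, and 25697 and 24767 for those given ezetimibe. The knockout-labelled arrays together were higher by 3.99 log2 units (SE 0.11, limma adjusted p = 0.00766). That call was lost without wild-type replicate 2 (limma adjusted p = 0.144), without either ezetimibe array (0.0904 and 0.119) and with no filter on dim probes (0.115), at a difference of at least 3.90 in each alternative. The labels do not say whether this probe lies in the deleted part, so it may check nothing, and the directions below rest on the labels alone.

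All 4 class II genes were measured in the testis, each detected on 6 of 6 arrays with a signal-to-noise between 8.39 and 28.26. In raw signal the I-A alpha chain and the I-E beta chain were lowest on wild-type replicate 2, the dimmest array. After quantile normalisation they were dimmer on every knockout-labelled array than on either wild-type-labelled array, by 1.31-fold and 1.37-fold on average. Such a separation was found for 9.38% of all probes. The I-A beta chain stood the other way, 1.19-fold brighter, and the groups overlapped for the invariant chain. With ezetimibe in the chow the chains differed little from knockout-labelled testes on chow alone. Among 16015 probes tested, limma called 2 between the knockout-labelled and the wild-type-labelled arrays (0.0125%), Abcg8 and a probe with no gene listed, so that 0 of the 4 class II genes were called. At an unadjusted p under 0.05 there were 1422 probes. The smallest p that exact permutation of 2 arrays against 4 allows is 0.133.

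H2-Aa, the alpha chain of I-A, had a raw signal of 2564 and 924 in wild-type-labelled testes, 1755 and 1557 in knockout-labelled testes on chow, and 1753 and 1832 with ezetimibe. After quantile normalisation its log2 signal was 10.91 and 11.00 in wild-type-labelled testes, 10.50 and 10.56 in knockout-labelled testes on chow, and 10.58 and 10.64 with ezetimibe. Both wild-type-labelled arrays thus stood above all 4 knockout-labelled arrays once the dim array was scaled, with a gap of 0.27 between the nearest arrays. Relative to wild-type-labelled testes, the knockout-labelled ones differed by -0.39 on the log2 scale (SE 0.08). Over the 15 alternative settings this difference ran from -0.43 to -0.31. Of all probes, 9.38% were lower with no overlap in this comparison, so such a separation is common on these arrays.

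H2-Eb1, the beta chain of I-E, showed the widest difference of the 4 genes. Its log2 signal was 12.82 and 12.55 in wild-type-labelled testes, 12.27 and 12.18 in knockout-labelled testes on chow, and 12.19 and 12.30 with ezetimibe. The wild-type-labelled arrays differed from each other more than the 4 knockout-labelled arrays did, yet both stood above them, by 0.25 at the nearest point. Set against the wild-type-labelled arrays, the knockout-labelled arrays differed by -0.46 (SE 0.11). Leaving out wild-type replicate 1 gave -0.32, and leaving out replicate 2 of that group gave -0.59. When arrays were scaled by their medians the gap shrank to 0.10, and the groups still did not overlap.

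H2-Ab1, the beta chain that pairs with the product of H2-Aa, was not lower. Its log2 signal was 11.28 and 11.08 in wild-type-labelled testes, 11.37 and 11.45 in knockout-labelled testes on chow, and 11.32 and 11.58 with ezetimibe. All 4 knockout-labelled arrays stood above the wild-type-labelled ones, but the gap between the nearest arrays was 0.04, less than the spread within the wild-type-labelled group (SD 0.15, n = 2). The difference was 0.25 (SE 0.12), with a range of 0.15 to 0.36 over the alternatives. Of all probes, 9.61% were higher with no overlap in this comparison.

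Cd74, the invariant chain gene and the only one of the 4 that lies off chromosome 17, on chromosome 18, separated no genotype. Its log2 signal was 12.20 and 12.63 in wild-type-labelled testes, 11.94 and 12.48 in knockout-labelled testes on chow, and 12.12 and 12.00 with ezetimibe. Knockout replicate 2 stood above wild-type replicate 1, so the groups overlapped. The knockout-labelled arrays differed from the wild-type-labelled arrays by -0.28 (SE 0.21). That value was -0.06 without wild-type replicate 2, and -0.50 when replicate 1 of that group was left out instead. The SD of Cd74 was 0.31 in wild-type-labelled testes, 0.38 in knockout-labelled testes on chow and 0.08 with ezetimibe (n = 2 each). In the first 2 groups it was above that of each chain gene, and with ezetimibe H2-Ab1 had a higher SD, 0.18.

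**Figure D1:**
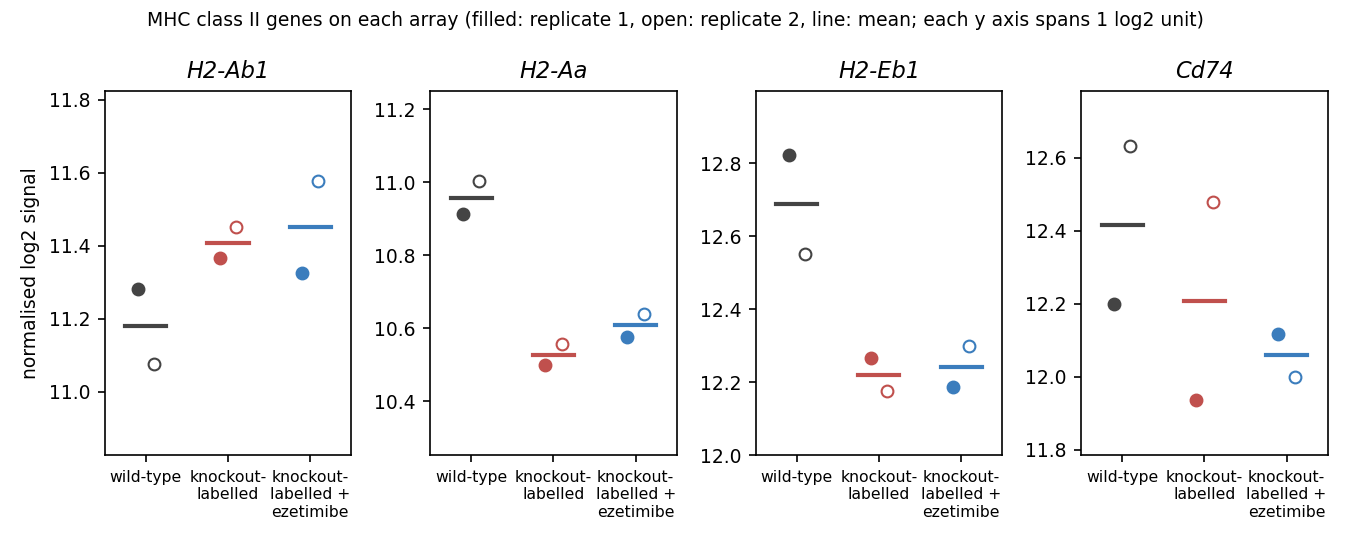
Normalised log2 signal of H2-Aa, H2-Ab1, H2-Eb1 and Cd74 (vertical axes) on each of the 6 arrays, by group; points are single mice and lines are group means. H2-Aa and H2-Eb1 are higher on both wild-type-labelled arrays than on the 4 knockout-labelled arrays, H2-Ab1 is lower there by a gap of 0.04, and Cd74 overlaps.

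The differences between genotypes can also be given by diet, in 2 comparisons that share the wild-type-labelled arrays. Against those arrays, H2-Aa differed by -0.43 in knockout-labelled testes on chow and by -0.35 with ezetimibe. H2-Eb1 differed by -0.47 and -0.44, H2-Ab1 by 0.23 and 0.27, and Cd74 by -0.21 and -0.36. On chow the value of Cd74 turned to 0.01 without wild-type replicate 2 and to 0.06 without knockout replicate 1. On chow alone, 2 of the 4 genes were lower with no overlap, beside 21.1% of all probes, and 1 was higher, beside 22.6%. With ezetimibe 3 were lower with no overlap, Cd74 being the third, beside 18.2% of all probes, and 1 was higher, beside 18.6%. In each of these comparisons limma called 2 of 16015 probes (0.0125%) and none of the 4 genes, with 1440 and 1160 probes at an unadjusted p under 0.05.

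Between the diets the class II signals lay close together. The knockout-labelled arrays with ezetimibe differed from those without by 0.08 for H2-Aa (SE 0.09), 0.04 for H2-Ab1 (SE 0.14), 0.02 for H2-Eb1 (SE 0.13) and -0.15 for Cd74 (SE 0.24). H2-Aa alone did not overlap, higher by a gap of 0.02 that median scaling removed, beside 19.1% of all probes. None of the 4 was lower with no overlap, beside 19.7% of all probes. The sign of H2-Ab1 and of H2-Eb1 turned under median scaling, to -0.02 and -0.04. Limma called 0 of 16015 probes (0%) in this comparison, with 922 at an unadjusted p under 0.05, and 14 with an intensity trend in the prior variance.

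Ratios between 2 probes of the same array do not depend on how arrays were scaled to each other by a constant, and only their change between arrays can be read, not their size. On the log2 scale the ratio of the raw signals of H2-Ab1 and H2-Aa was 0.36 and 0.06 in wild-type-labelled testes, 0.88 and 0.91 in knockout-labelled testes on chow, and 0.76 and 0.94 with ezetimibe. The signals of the I-A chains therefore stood in another proportion on the knockout-labelled arrays, 1.58-fold further toward the beta chain, with no overlap. Against H2-Eb1 the ratio of H2-Ab1 was -1.54 and -1.48 in wild-type-labelled testes, -0.89 and -0.72 in knockout-labelled testes on chow, and -0.86 and -0.72 with ezetimibe, a 1.64-fold shift. The ratio of H2-Aa to H2-Eb1 overlapped between the genotypes, with a difference of 0.06.

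These shifts are not particular to H2-Ab1. Because H2-Aa was low on the knockout-labelled arrays, 66.5% of the 16014 other probes also had a ratio to H2-Aa that was higher there with no overlap, and 62.3% had one to H2-Eb1.

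**Figure D2:**
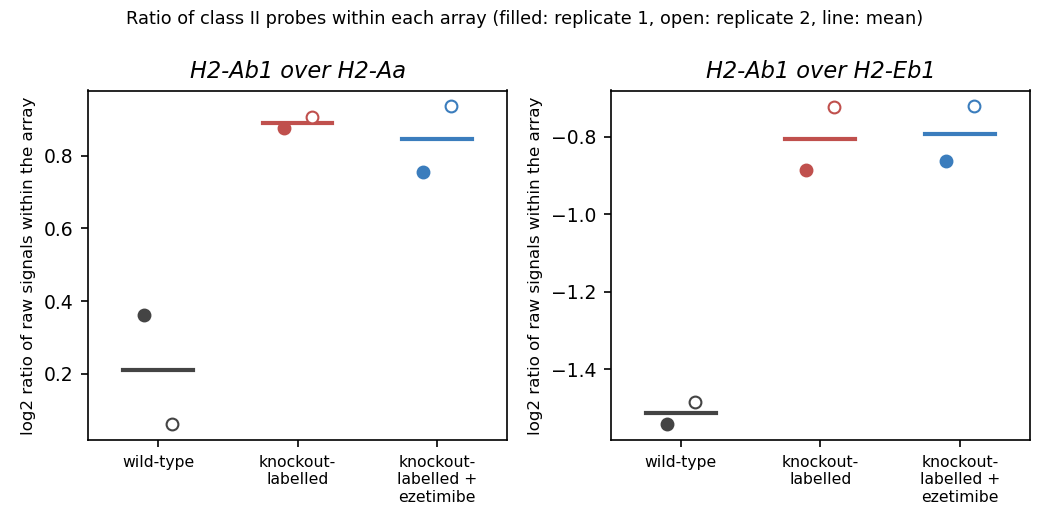
Log2 ratio of the raw signal of H2-Ab1 to that of H2-Aa (left) and of H2-Eb1 (right) on the same array (vertical axes) for the 3 groups; points are single mice and lines are group means. Both ratios are higher on all 4 knockout-labelled arrays, from 0.76 and from -0.89, than on the wild-type-labelled arrays, up to 0.36 and -1.48.

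The macrophage complement genes were set beside the class II genes. C1qa, C1qb and C1qc encode the 3 chains of C1q, which starts the classical complement pathway and is made mainly by tissue macrophages. C1qa had a log2 signal of 14.26 and 14.12 in wild-type-labelled testes, 14.11 and 14.10 in knockout-labelled testes on chow, and 13.65 and 13.75 with ezetimibe. For C1qc these values were 12.85 and 12.86, then 12.73 and 12.59, then 12.16 and 12.28. Both genes were thus lowest on the ezetimibe arrays, and highest on the wild-type-labelled ones by a small margin, while H2-Aa and H2-Eb1 were low on all 4 knockout-labelled arrays.

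In numbers, C1qa differed by -0.08 between the genotypes on chow and by -0.40 (SE 0.10) between ezetimibe and chow (limma adjusted p = 0.701). C1qc differed by -0.19 and by -0.44 (SE 0.10, limma adjusted p = 0.654). C1qb, at -0.02 and -0.10, overlapped in both comparisons. The first of these values turned to 0.03 for C1qa and to 0.09 for C1qb under median scaling, and the 2 comparisons share the chow-fed knockout-labelled arrays. Over both diets, C1qa differed between the genotypes by -0.29, C1qb by -0.07 and C1qc by -0.41. C1qa and C1qc were lower there with no overlap, beside 9.38% of all probes. None of the 3 genes was called. Because the class II genes were chosen for their pattern, the difference between them and the complement genes was not tested. The complement receptor genes C3ar1, C5ar1 and Vsig4 were on the array but not detected on any of the 6.

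As a mean over its genes, relative to the mean of all arrays, the class II group stood at 0.14 and 0.15 log2 units in wild-type-labelled testes, -0.15 and 0.00 in knockout-labelled testes on chow and -0.11 and -0.03 with ezetimibe. The C1q group stood at 0.22 and 0.12, then 0.12 and 0.03, then -0.24 and -0.24. The class II mean holds H2-Ab1, which stood the other way.

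**Figure D3:**
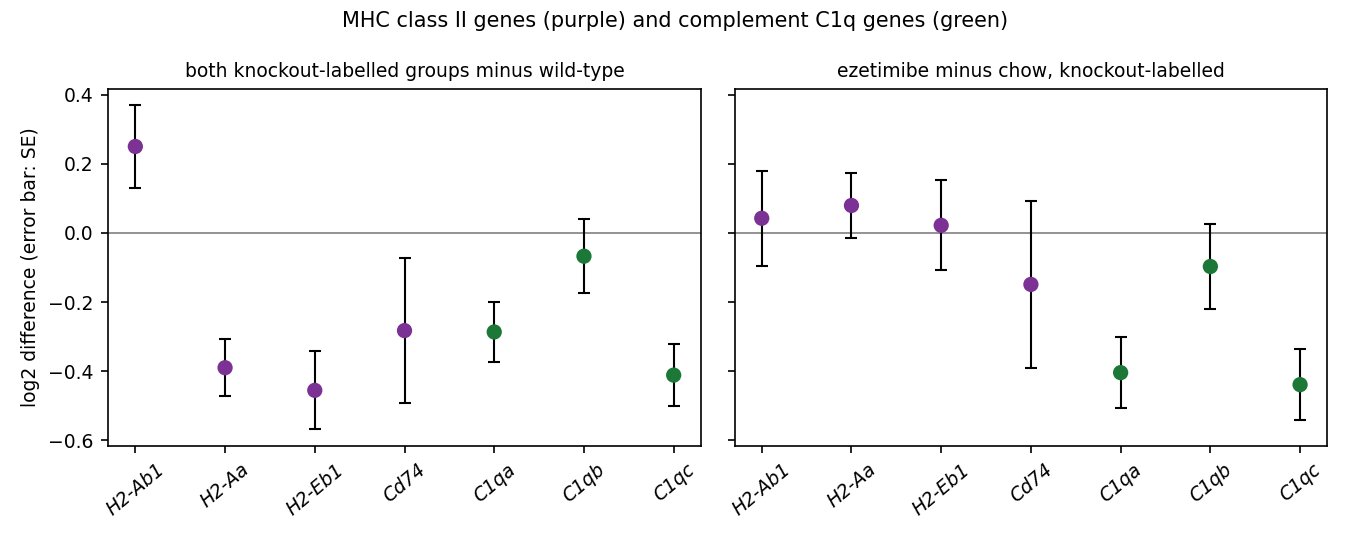
Log2 differences (vertical axis, with the SE of the limma fit as bars) for the 4 class II genes in purple and the 3 C1q genes in green, between genotypes over both diets (left) and between diets among knockout-labelled testes (right). H2-Aa and H2-Eb1 lie at -0.39 and -0.46 on the left and at 0.08 and 0.02 on the right, while C1qa and C1qc lie at -0.29 and -0.41 on the left and at -0.40 and -0.44 on the right.

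No measured gene of the other parts of the class II pathway was called. H2-DMa, the alpha chain of the peptide exchanger, was detected on all arrays and differed by -0.14 between the genotypes (SE 0.15, limma adjusted p = 0.75), with overlap. H2-Ob, a chain of the H2-DO inhibitor of that exchange, was dim. It was not detected on wild-type replicate 2, and its difference of 1.25 (SE 0.78, limma adjusted p = 0.635) turned to -0.14 without that array. H2-Oa, its partner, and H2-Ea, listed as a transcribed pseudogene in RefSeq for C57BL/6J, were not detected on any array.

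Of 7 regulators of class II transcription on the array, 4 were measured, and none was called. The transactivator Ciita, Rfx5 of the RFX complex and Nfya of NF-Y were not detected on any array, so the switch itself could not be followed. Rfxap, another RFX subunit, differed by 0.45 between the genotypes (SE 0.15, limma adjusted p = 0.546). Its values were higher on all 4 knockout-labelled arrays, beside 9.61% of all probes. The signal-to-noise of Rfxap was 3.18 and 3.39 in wild-type-labelled testes, and 1 ezetimibe array, at 2.38, fell short of detection. Rfxank differed by 0.08, Creb1 by -0.05 and Nfyc by 0.02, each with overlap, and the sign of Creb1 turned under median scaling. Creb1 was lower with ezetimibe than on chow alone by 0.66 log2 units (SE 0.14) without passing the test (limma adjusted p = 0.594).

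Of the list of antigen processing enzymes, 6 proteases and the thiol reductase Ifi30 were on the array, while no probe was assigned to Ctsb. All 7 were measured, and 3 lay above 0 and 4 below between the genotypes. Their median was -0.03 against 0.003 for all probes. Ctss, cathepsin S, the protease that removes the invariant chain in macrophages and dendritic cells, differed by -0.26 (SE 0.09, limma adjusted p = 0.55). Between the diets it differed by -0.36 (SE 0.11, limma adjusted p = 0.779), and between the genotypes on chow by -0.08, which turned to 0.04 under median scaling. Ctsh differed by -0.28 and Ctsz by 0.41, both with overlap. Ctsz was detected on 4 arrays and passed the filter through the chow-fed knockout-labelled pair alone. Ctsz stood at -0.20 without wild-type replicate 2 and at 1.01 without wild-type replicate 1, so that its sign turned. Of 9 surface partners on the array only Pdcd1lg2 was measured, at 0.25 and between -0.39 and 0.85 with 1 array left out. It was detected on 3 arrays and passed the filter through the wild-type-labelled pair alone. Cd86 and Cd40, which costimulate T cells, were not detected.

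Since these are whole testes, fewer class II cells and less RNA per cell cannot be told apart. Markers of the cells that could carry class II were therefore set beside the chains, for all genes of each list. Of the 6 pan-leukocyte genes on the array, 2 were measured and both were lower on all 4 knockout-labelled arrays. The share of all probes that were lower there with no overlap was 9.38%. Cd52, a surface glycoprotein of leukocytes, had a log2 signal of 11.55 and 11.73 in wild-type-labelled testes, 10.96 and 11.28 in knockout-labelled testes on chow, and 10.96 and 11.02 with ezetimibe. Its difference was -0.59 (SE 0.13, limma adjusted p = 0.451). Vav1, a signalling protein of blood cells, differed by -0.29 (SE 0.12, limma adjusted p = 0.569). Their linear signals summed to 11722 and 12411 in wild-type-labelled testes and to between 8544 and 10105 in all knockout-labelled testes. Ptprc, the CD45 gene that defines leukocytes, and Cd53 were not detected on any array. The part of leukocyte number in the class II differences was not tested.

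Macrophage markers stood on both sides of 0. Of 15 on the array 10 were measured, 7 above 0 and 3 below between the genotypes, with a median of 0.05. Cd163, a scavenger receptor of resident macrophages, differed by -0.78 (SE 0.28, limma adjusted p = 0.55). It was detected on 2 arrays and passed the filter through the wild-type-labelled pair alone. Every knockout-labelled value of Cd163 was thus below detection, so the size of its difference is uncertain. Msr1, another scavenger receptor, differed by 0.26 (SE 0.11, limma adjusted p = 0.569). The lysozyme genes Lyz1 and Lyz2 stood near the wild-type-labelled arrays over both diets, at 0.11 and 0.07, and were lower with ezetimibe than on chow by 0.60 and 0.39 log2 units, without passing. Adgre1, Fcgr1 and the myeloid factor Spi1 were not detected on any array. Linear signals of the list summed to 246319 and 246117 in wild-type-labelled testes, 259953 and 261462 in knockout-labelled testes on chow, and 248104 and 231965 with ezetimibe. These sums rest largely on Aif1, whose mean signal alone was 172256, 177499 and 167880 in the 3 groups. With equal weight for each gene, the list stood at -0.07 and 0.01 log2 units relative to the mean of all arrays in wild-type-labelled testes, at 0.08 and 0.15 in knockout-labelled testes on chow, and at -0.14 and -0.02 with ezetimibe.

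Of 9 dendritic cell genes 5 were measured, with 3 above 0 and 2 below. Flt3, a receptor of dendritic cell precursors, differed by -0.74 (SE 0.25, limma adjusted p = 0.546) and was lower on all 4 knockout-labelled arrays. Without wild-type replicate 2 it stood at -0.35, and without wild-type replicate 1 at -1.13. Ccr7, the receptor that draws dendritic cells to lymph nodes, had the largest difference of the list and the other sign, 1.60 (SE 0.71, limma adjusted p = 0.573). Its groups overlapped, with a range of 0.42 to 2.75 with 1 array left out. Detected on 1 wild-type-labelled array and on all 4 knockout-labelled arrays, Ccr7 passed the filter through the latter alone. Zbtb46, a factor of conventional dendritic cells, differed by 0.15. Of 7 B cell genes only Pax5 was measured, at -0.41 with overlap, while Cd79b, Cd22 and Cr2 were not detected. Of 10 T and NK cell genes 6 were measured, 5 above 0 and 1 below, with Cd3d, a chain of the T cell receptor complex, at 0.20. Prf1, the perforin gene, was detected on the 2 ezetimibe arrays and on no other array, and passed the filter through them alone. Its differences from the wild-type-labelled arrays were 0.06 on chow and 1.78 with ezetimibe, neither of which passed the test. Cd3e, Cd3g and Cd4 were not detected. No gene of these 3 lists was called.

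Genes of neighbouring immune pathways also stayed uncalled. Among MHC class I genes, which present peptides to CD8+ T cells, 11 of 17 on the array were measured, 7 above 0 and 4 below, with a median of 0.02. B2m, the chain shared by all class I molecules, differed by -0.21, the nonclassical H2-T23 by -0.39 (-0.59 to -0.20 with 1 array left out) and the loading factor Tapbp by 0.45, none of them past the test. Of 21 interferon response genes on the array, 8 were measured, 4 above 0 and 4 below, with a median of -0.01. Interferon gamma, the main inducer of Ciita outside professional presenting cells, was not detected, and Ifngr2, a chain of its receptor, differed by -0.25 (SE 0.12, limma adjusted p = 0.597). Both blood genes on the array were measured, and neither was called. Hba-a1, alpha globin, differed by 1.85 between the genotypes on chow and by -2.43 between ezetimibe and chow, with limma adjusted p = 0.435 and 0.495, and both differences passed with an intensity trend in the prior variance. Alas2, the haem synthesis enzyme of red cells, differed by 0.27 and -0.44, with limma adjusted p = 0.612 and 0.876. The part of blood in the class II signals was not tested.

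The genes whose signal was most like the mean of the class II genes were ranked among 8084 genes compared. The first 10 were Cabyr, Agxt, Prkab1, Acp7, Kif17, Smoc2, Cuzd1, Mmp11, Frat2 and Egln1, with Pearson correlations from 0.96 to 0.99 over 6 arrays. Under median scaling 2 of them stayed among the 10, and without wild-type replicate 2 it was 5. A correlation of at least 0.9 was reached by 66 genes. On the same measure C1qc stood at 0.63, C1qa at 0.58, H2-DMa at 0.26 and C1qb at 0.03. Among the first 10 genes, the SD over the 6 arrays ran from 0.05 for Cabyr and Prkab1 to 1.11 for Agxt. The class II mean holds H2-Ab1, whose correlation with H2-Aa was -0.72.

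The 3 chain genes lie on chromosome 17, as does Abcg8. A targeted allele carried over from another strain keeps the donor's chromosome on both sides for some distance, and MHC genes differ between strains, so the measured neighbours were examined in the gene order of RefSeq. Between the class II genes and Abcg8 lay 199 measured genes, and no other measured gene lay inside the class II cluster. Between the genotypes these 199 genes had a median difference of -0.01, and 18.1% of them did not overlap, against a median of 0.004 and 18.4% for 7842 genes on other chromosomes.

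Over both diets, none of the nearest measured neighbours of the class II genes separated the genotypes. Of the 10 measured genes just before the cluster, H2-DMa and H2-Ob among them, 5 lay above 0 and 5 below, with a median of 0.02, and 0 separated the genotypes without overlap. Ring1, a Polycomb gene, had the lowest p there, with a difference of 0.43 (SE 0.22, limma adjusted p = 0.605). Of the 10 just after it, 3 lay above 0 and 7 below, with a median of -0.05, and again 0 separated, with Agpat1, a phospholipid synthesis enzyme, at 0.12 (limma adjusted p = 0.681). On chow alone, 4 of the 10 before the cluster (2 lower and 2 higher) and 2 of the 10 after it (1 each way) did not overlap, beside 21.1% of all probes lower and 22.6% higher. The 3 chain genes separated over both diets, but they were chosen with that pattern known.

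Around Abcg8 some genes stood lower with no overlap. Of the 10 measured genes just before it 5 lay below 0 and 3 were lower with no overlap, beside 9.38% of all probes, with Galm, a sugar mutarotase, at -0.25 (limma adjusted p = 0.562). Of the 10 just after it 9 lay below 0 and 3 were lower with no overlap, with a median of -0.18. On chow alone, 6 of these 10 were lower with no overlap, beside 21.1% of all probes. Slc3a1, a subunit of an amino acid transporter, stood at -1.02 there (SE 0.36, limma adjusted p = 0.55). Apart from Abcg8 itself, no measured gene of chromosome 17 was called. The lowest p between the class II genes and Abcg8 was that of AI661453, at 0.91 (SE 0.10, limma adjusted p = 0.203). Among the 218 measured genes before the class II genes or after Abcg8, the nearest neighbours there included, 22.5% did not overlap. Ston1, an endocytic adaptor gene, had the lowest p of these, at -2.22 (SE 0.15, limma adjusted p = 0.0968). Both were named after their values were seen.

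**Figure D4:**
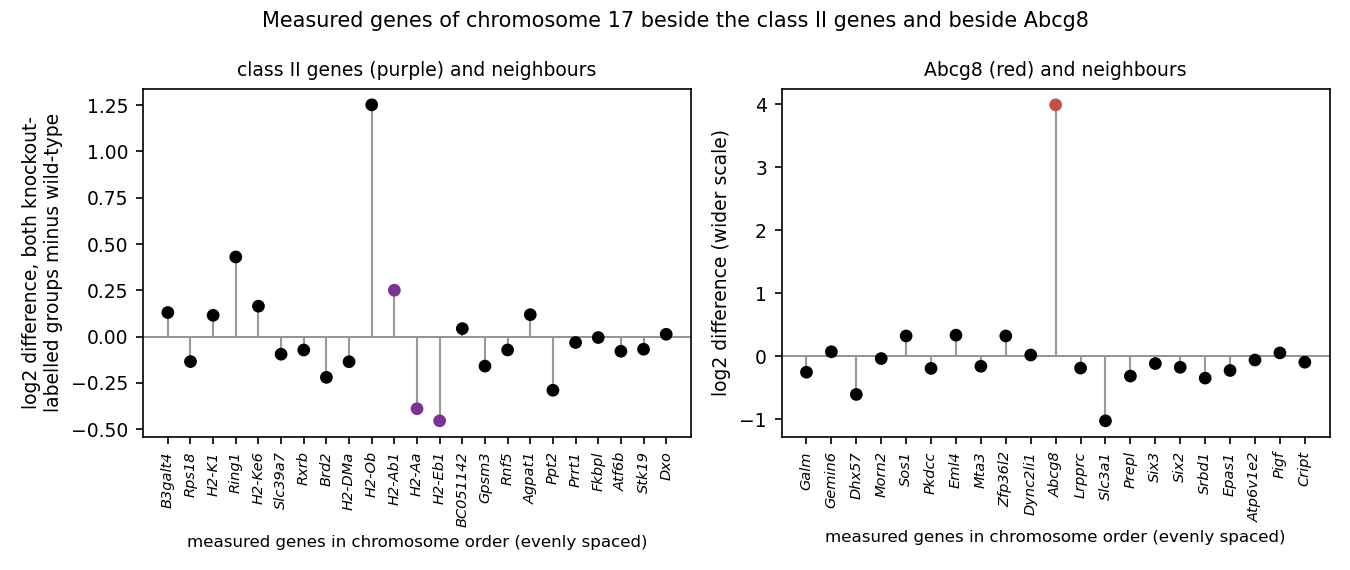
Log2 difference of the knockout-labelled from the wild-type-labelled arrays (vertical axis) for measured genes in their order along chromosome 17, around the class II genes (left) and around Abcg8 (right, on a wider scale). The 10 neighbours on either side of the class II genes have medians of 0.02 and -0.05, and those after Abcg8 a median of -0.18; the high point of H2-Ob rests on wild-type replicate 2, where it was not detected.

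Elsewhere in the genome, expression that varies among C57BL/6 substrains was examined through Wdfy1, an endosomal protein, and Entpd4, a nucleotide-hydrolysing enzyme, both chosen with their values known. That their expression differs between such substrains is background knowledge, not recorded in any file used here. Wdfy1 had a log2 signal of 13.11 and 13.02 in wild-type-labelled testes and 14.15 to 14.61 on the 4 knockout-labelled arrays. Entpd4 read 13.83 and 13.94 in wild-type-labelled testes and 12.72 to 12.91 on the knockout-labelled arrays. Both gaps were wider than those of the class II genes.

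The difference was 1.36 for Wdfy1 (SE 0.13, limma adjusted p = 0.151) and -1.08 for Entpd4 (SE 0.08, limma adjusted p = 0.116). Neither passed here, and both passed with an intensity trend in the prior variance, with limma adjusted p = 0.000127 and 0.000268. They also passed on probes detected on all arrays, at 0.0446 and 0.0272. The labels give C57BL/6J for all 6 mice. Whether a strain difference, in the MHC or elsewhere, has a part in the class II signals was not tested, and genotype and any such background cannot be told apart in this design. Probe sequences were not used here, so a base difference under a probe could not be looked for.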

How the data were processed

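Testis RNA of 6 mice was hybridised to 1-colour arrays, per the labels. For 33012 probes the deposited table gives, per the file headers, an intensity (raw signal) and a score (signal-to-noise); 0 further per-sample columns were left out. The authors' processed intensity values, which are raw signals scaled array by array, served as an alternative. Scanner software: not given in the sources used here. Raw signals were taken as log2 and quantile-normalised with limma 3.58.1 in R 4.3.3. A probe was kept, as 16015 were, if any group had a signal-to-noise of 3 or more on both of its arrays. All 6 arrays entered 1 limma model (lmFit, eBayes) with a mean for each group, and p-values were Benjamini-Hochberg adjusted over all kept probes, with a threshold of 0.05. Both knockout-labelled groups together were set against wild-type as the mean of their 2 groups. P-values rest only on the spread between the 2 mice of a group, pooled over the 3 groups. Limma moderates that spread toward a value estimated from all kept probes.

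The platform's annotation gave 1 gene symbol to 14411 probes, several to 247 and none to 18354, and the brightest kept probe stood for a gene. Members and lists (17 lists, 183 genes, 138 on the array, 80 measured) were chosen with earlier results of these data known. Named were the members, Abcg8, all measured genes of the class II loading, chain and regulator lists and of the complement list, up to 4 genes of lowest p of each other list, the 10 genes most like the members' mean, and the gene of lowest p on each side of the class II cluster and of Abcg8; AI661453 and Ston1 were added after their values were seen, and Cd79b, Cd86, Cd40, Prm2, Wt1 and others named as detected or not carry no value. The fit was tested on simulated data, only with changes larger than the class II differences described here. Promoters came from RefSeq (GRCm38.p6), and other coordinates of that build were not used, since no label names the build of the array. The number of arrays limits the precision.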

Additional observations from a re-analysis of the deposited data

How the results depend on the processing

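Across 15 alternatives, H2-Aa and H2-Eb1 kept the sign of their difference from wild-type-labelled arrays in 15 of 15, as did H2-Ab1, in each of the 3 comparisons with those arrays. Cd74 on chow kept it in 13. The number of probes called depended on the settings. Between the genotypes on chow it went from 2 to 0 with no filter on dim probes and with only the arrays compared, to 4 with a signal-to-noise of at least 3 on all arrays and to 31 with an intensity trend in the prior variance, and lay between 0 and 1 when 1 array was left out. Between the diets it went from 0 to 14 with the trend and lay between 0 and 4 with 1 array left out. Between ezetimibe and wild-type-labelled testes it went from 2 to 0 with no filter, 26 with the trend, and 1 with array weights or only the arrays compared, and lay between 0 and 3 with 1 array left out. For both knockout-labelled groups it went from 2 to 0 with no filter, 5 with the stricter filter and 29 with the trend. With 1 array left out it lay between 0 and 61, the latter without wild-type replicate 1. The cause was not tested. Abcg8 kept a difference of 3.90 to 4.07 in that comparison over the alternatives, with limma adjusted p up to 0.144.

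The median difference of the 4 class II genes, given as a description, was -0.32 on chow, with -0.20 under median scaling and -0.20 on the authors' processed values, and -0.44 to -0.17 with 1 array left out. For both knockout-labelled groups it was -0.34, with -0.25 and -0.25 on those scales and -0.41 to -0.21 with 1 array left out. Without 1 array it lay between -0.35 and -0.22 for ezetimibe against wild-type-labelled testes, and between -0.059 and 0.10 for the diets. Median scaling took the median of all probes on chow from 0.00522 to 0.11, which by itself brings the negative differences nearer to 0. Wild-type replicate 2 was the dimmest array. Leaving out either wild-type array moved several uncalled values by over 1.5 times; those not given beside their results include H2-DMa, -0.26 to -0.01, and Rfxank, -0.13 to 0.28. No paired analysis was possible because the labels link no mouse of one group to a mouse of another, and the replicate numbers were given in accession order. The mean over several probes of a gene changed nothing for the 4 genes, since each has 1 probe. Dim genes such as Ciita cannot be followed at this signal over background.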
